A study of Homo sapiens with 12 samples.

Results

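The levels of 10 genes of the NF-kB pathway were followed across all 6 groups of an RNA-seq series. These were the chemokine genes CXCL8, CXCL1, CXCL2 and CXCL3, the cytokine gene LIF, the feedback genes NFKBIA, TNFAIP3 and NFKBIZ, the NF-kB subunit gene RELB and the adhesion receptor gene ICAM1. They were matched by Ensembl identifier in the gene-body and exon count tables, and 10 of 10 were found among 58051 genes. They had been chosen by measured values of this series, their level in the starved siPFDN5 libraries against starved siControl, where most of them were higher. That difference, and each comparison that shares the starved siPFDN5 libraries, is therefore given as a description with no test. All 10 were among the 27915 genes that passed the filter on low counts, with between 15 and 17436 gene-body counts in a library.

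NF-kB is a family of paired transcription factors that IkB proteins hold in the cytoplasm. When a receptor signal activates the IKK kinases, IkB is degraded and the factors enter the nucleus. Among their targets are chemokines that recruit neutrophils through CXCR1 and CXCR2, and inhibitors of the pathway itself: NFKBIA encodes IkB-alpha, and TNFAIP3 encodes A20, an enzyme that edits ubiquitin on upstream signalling proteins. NFKBIZ encodes a nuclear IkB protein that acts on a subset of target promoters. Many of these genes are also primary response genes that growth factors and serum induce within minutes to hours.

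The cells were HCT116, a human colon carcinoma line, transfected with 1 siRNA per target: siControl, siPFDN2 or siPFDN5. The proteins PFDN2 and PFDN5 are subunits of prefoldin, which is a co-chaperone that hands actin and tubulin to the chaperonin TRiC. In every group serum was withdrawn for 48 h, starting 24 h after siRNA addition, and cells were collected starved or 90 min after serum was given back. Each group had 2 libraries, called replicates 1 and 2. The labels do not say that replicates came from separate cultures, so p-values measure the spread between these libraries only, which may be technical. In bulk RNA, fewer cells expressing a gene and less RNA per cell cannot be told apart.

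Gene-body counts summed to between 59784425 and 136504590 in a library. PFDN5 was at 40.97 and 44.18 CPM (a gene's count relative to its library's scaled total, a level that is not per length) in the starved siPFDN5 libraries and at 76.8 and 68.9 CPM in the starved siControl libraries. After serum it was at 67.5 and 68.6 CPM under the siPFDN5 label and at 67.9 and 74.03 CPM in siControl, a log2 difference of -0.06 (SE 0.14, adjusted p = 0.827). Over exons it was at 23.3 CPM per kb (SD 0.34) under that label and at 26.25 (SD 0.58) in siControl after serum. In starved siPFDN5 cells the exon level was 15.94 CPM per kb. The target was thus not clearly lowered after serum, and these 2 are written below as the libraries labelled siPFDN5 after serum. PFDN2 was lower in all 4 siPFDN2 libraries (7.55 to 9.47 CPM) than in the 4 siControl libraries (11.2 to 19.5 CPM), without passing the adjusted threshold (adjusted p = 0.442 starved and 0.772 after serum). Under the siPFDN5 label PFDN2 was higher than in any siControl library, at 21.75 and 21.05 CPM starved and at 23.06 and 28.7 CPM after serum. Starved siPFDN2 replicate 2 stood apart: its counts followed the GC content of genes with a Spearman rho of 0.69, against -0.28 to 0.13 in the other 11 libraries. Epithelial markers (EPCAM, CDH1, KRT8, KRT18, KRT19 and VIL1) summed to between 1847 and 2884 CPM. Of 6 leukocyte markers 5 stayed under 1 CPM in every library, the exception being CSF1R. The same held for 3 of 4 fibroblast markers (COL1A1 was higher) and 3 of 4 endothelial markers (VWF was higher).

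Upstream sequences were compared first, because several of the genes share a promoter element. For 8 of the 10 genes RefSeq windows of GRCh38.p14 were available; LIF and RELB had no entry. The 9-base word present in most of them, over both strands of the 250 bases before the annotated start, was GGAATTTCC or its reverse complement GGAAATTCC. It occurred in 7 of 8 genes, TNFAIP3 being the one without it. Of 35116 promoter windows of the same length, 145 (0.413%) held it. The next most shared word was in 5 of the 8 genes and in 15.1% of windows. This word was picked for being shared, so its presence in the genes is a description, and a match is not evidence of binding. Shown are the 100 bases upstream of the 5 genes with the word closest to the start, 5′ to 3′ on the gene's strand, with the word in capitals.
CXCL1: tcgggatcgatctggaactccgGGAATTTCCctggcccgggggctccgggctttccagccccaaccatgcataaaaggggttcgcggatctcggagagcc
CXCL2: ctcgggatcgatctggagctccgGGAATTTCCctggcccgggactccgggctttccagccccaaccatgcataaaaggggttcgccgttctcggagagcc
CXCL3: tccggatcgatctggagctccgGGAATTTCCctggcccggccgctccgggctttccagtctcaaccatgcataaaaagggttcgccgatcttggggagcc
CXCL8: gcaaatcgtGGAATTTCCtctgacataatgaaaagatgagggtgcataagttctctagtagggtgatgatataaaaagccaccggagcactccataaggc
NFKBIA: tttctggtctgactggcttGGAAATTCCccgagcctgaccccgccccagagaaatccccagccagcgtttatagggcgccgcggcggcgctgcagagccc

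These stretches lie at chr4:73869293-73869392 (plus strand, CXCL1), chr4:74099196-74099295 (minus, CXCL2), chr4:74038690-74038789 (minus, CXCL3), chr4:73740469-73740568 (plus, CXCL8) and chr14:35404750-35404849 (minus, NFKBIA). The word began 78, 77 and 78 bases upstream of the start in CXCL1, CXCL2 and CXCL3, whose windows are near copies of each other, and 91 bases upstream in CXCL8. In NFKBIA the reverse complement began 81 bases upstream. ICAM1 carried the reverse complement 186 bases upstream, and NFKBIZ carried the word 222 bases upstream in 1 of its 2 windows. Outside the 10 genes, 54 tested genes had a window with the word, of which 3 rose after serum in siControl and 2 in siPFDN2, where 2.47% and 2.06% of all tested genes rose.

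**Figure D1:**
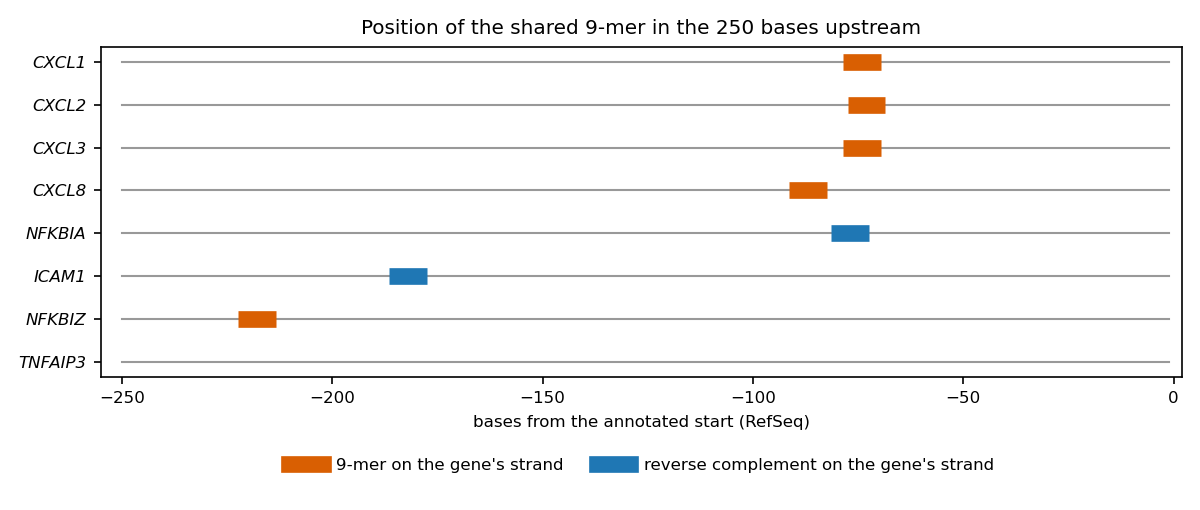
Position of the shared 9-base word in the 250 bases before the annotated RefSeq start of 8 genes (horizontal axis, bases from the start; orange: the word on the gene's strand, blue: its reverse complement). The 4 chemokine genes and NFKBIA carry it between 69 and 91 bases upstream, ICAM1 and NFKBIZ farther away, and TNFAIP3 shows no match.

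Levels of different genes were compared as exon CPM per kb of exon. In starved siControl cells NFKBIA (12.9 per kb) and LIF (9.93 per kb) were the most abundant, and the 4 chemokines the least, from 0.431 per kb for CXCL1 down to 0.114 per kb for CXCL3. After serum in siControl, LIF stood at 38.7, NFKBIA at 31.4 and CXCL8 at 23.3 per kb, so that CXCL8 moved from the eighth place to the third. The 2 libraries of neighbouring genes overlapped for TNFAIP3 with CXCL1 and CXCL1 with CXCL8 when starved, and for CXCL2 with CXCL1 and NFKBIZ with ICAM1 after serum. Under the siPFDN5 label after serum CXCL8 was first, at 55.2 per kb, ahead of NFKBIA at 47.2 and LIF at 43.5.

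**Figure D2:**
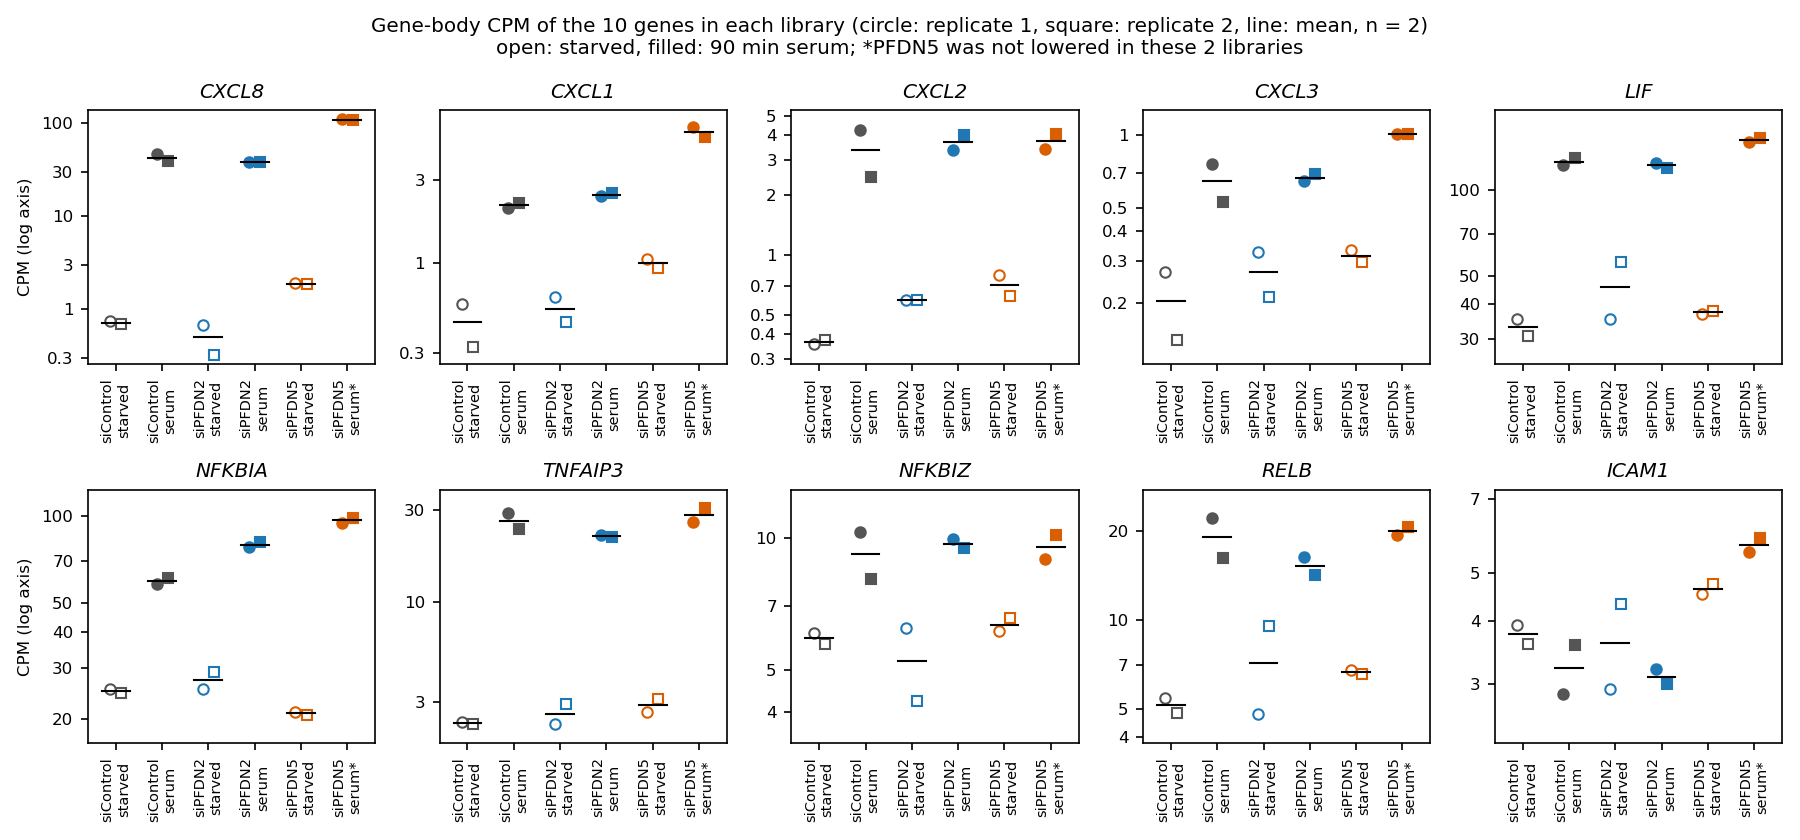
Gene-body CPM of the 10 genes (log axis, a scale per gene) in each of the 12 libraries, by group; circles are replicate 1, squares replicate 2, lines the mean of 2, open symbols starved and filled symbols 90 min serum. The 9 genes other than ICAM1 are higher after serum in both libraries of each siRNA, and CXCL8 runs from 0.328 to 109.5 CPM.

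The first question was which of the genes answered serum in control cells. In siControl 8 of the 10 rose and 0 fell at an adjusted p under 0.05, where 2.47% of all tested genes rose and 0.394% fell. The test was the quasi-likelihood test of edgeR, two-sided, with p-values adjusted over all genes by the Benjamini-Hochberg method. At an unadjusted p under 0.05 there were 9, where 12.4% of all genes were. Both after-serum libraries were above both starved ones for 9 genes, as they were for 23.3% of all genes. The median log2 change of the 10 was 1.91, beside 0.01 over all genes. The comparison shares its starved siControl libraries with the difference for which the genes were noted.

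The chemokines are secreted ligands, and all 4 of these genes lie on chromosome 4. CXCL8 (interleukin 8; ENSG00000169429, chr4:73740506-73743716 in GRCh38) was at 0.743 and 0.702 CPM starved and at 46.04 and 38.65 CPM after serum in siControl. Its 69 and 75 counts became 3861 and 5205, and no starved library came near a serum library. The log2 change was 5.87 (SE 0.27, adjusted p = 4.35e-07), or 58.5-fold. CXCL2 (ENSG00000081041, chr4:74097035-74099293) went from 0.355 and 0.375 CPM to 4.26 and 2.45 CPM, a log2 change of 3.19 (SE 0.29, adjusted p = 0.000106). Its after-serum libraries differed more than the starved ones, but the groups did not overlap.

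CXCL1 (ENSG00000163739, chr4:73869393-73871242) was at 0.582 and 0.328 CPM starved and at 2.08 and 2.22 CPM after serum, a log2 change of 2.25 (SE 0.27, adjusted p = 0.000679). CXCL3 (ENSG00000163734, chr4:74036589-74038807) had the fewest counts, 25 and 15 starved and 64 and 71 after serum. It rose by 1.65 (SE 0.35, adjusted p = 0.0272) on the log2 scale, the smallest rise of the 4. That call did not hold on sums of transcript estimates, nor without starved siControl replicate 2, siControl replicate 1 after serum, either siPFDN2 library after serum, or any of the 4 siPFDN5 libraries (adjusted p up to 0.297). The CXCL1, CXCL2 and CXCL3 transcripts resemble each other: CXCL1 shared 165 of its 1067 words of 31 bases (15.5%) with CXCL2, CXCL2 shared 100 with CXCL3, and CXCL8 shared 0 with any of the 3. How reads were divided among the 3 similar genes is thus less certain than for CXCL8.

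LIF (ENSG00000128342, chr22:30240447-30246851), a cytokine of the interleukin 6 family that signals through LIFR and IL6ST, was at 35.4 and 30.8 CPM starved and at 122.2 and 129.5 CPM after serum in siControl. It rose by 1.93 (SE 0.20, adjusted p = 0.000229) on the log2 scale, from a starved level far above that of the chemokines. LIF overlaps LIF-AS1 and AC004264.1, and the counting used no strand, so reads of these genes cannot be separated where they overlap.

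Among the feedback genes, TNFAIP3 (ENSG00000118503, chr6:137867188-137883312) changed most. It was at 2.38 and 2.30 CPM starved and at 28.8 and 24.0 CPM after serum in siControl, a log2 change of 3.49 (SE 0.19, adjusted p = 2e-06), or 11.3-fold. It overlaps AL357060.1, which had at most 39 exon counts in a library. NFKBIA (ENSG00000100906, chr14:35401511-35404749) started high, at 25.3 and 24.5 CPM, and reached 58.2 and 60.98 CPM, a log2 change of 1.26 (SE 0.13, adjusted p = 0.000266). NFKBIZ (ENSG00000144802, chr3:101827991-101861022) was at 6.07 and 5.71 CPM starved and at 10.3 and 8.06 CPM after serum. Its groups did not overlap, but its log2 change of 0.64 (SE 0.20, adjusted p = 0.155) did not pass the test. It passed with the GC trend removed and without either starved siPFDN2 library (adjusted p as low as 0.00487).

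RELB (ENSG00000104856, chr19:45001430-45038198), a subunit that pairs with p52 in the non-canonical arm of the pathway, went from 5.44 and 4.84 CPM to 22.0 and 16.2 CPM. It rose by 1.89 (SE 0.28, adjusted p = 0.00302) on the log2 scale in siControl, and lost its call only without starved siControl replicate 2 (adjusted p = 0.0615) among 22 alternatives. Over exons alone RELB went from 1.74 to 4.55 per kb, and over the alternatives its log2 change ran from 1.38 to 2.03. ICAM1 (ENSG00000090339, chr19:10270835-10286615), the ligand of leukocyte integrins, was the exception. It was at 3.93 and 3.61 CPM starved and at 2.86 and 3.59 CPM after serum, a log2 change of -0.22 (SE 0.21, adjusted p = 0.793). It overlaps AC011511.2 and AC011511.5, whose exon counts reached 1960 in a library.

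In siPFDN2 cells 7 of the 10 genes rose after serum and 0 fell, where 2.06% of all tested genes rose and 1.2% fell. The median log2 change was 1.48, beside -0.02 over all genes. For 9 genes both after-serum libraries were above both starved ones, as were 26.2% of all genes. CXCL8 went from 0.677 and 0.328 CPM to 38.5 and 37.8 CPM, a log2 change of 6.26 (SE 0.28, adjusted p = 3.53e-07). TNFAIP3 went from 2.31 and 2.93 CPM to 22.2 and 21.6 CPM (log2 3.06, SE 0.19, adjusted p = 5.2e-06). Both rose under every alternative run.

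The other 5 that rose in siPFDN2 were CXCL2 (log2 2.63, SE 0.28), CXCL1 (2.19, SE 0.27), NFKBIA (1.55, SE 0.13), LIF (1.42, SE 0.19) and NFKBIZ (0.89, SE 0.20), with adjusted p between 7.18e-05 and 0.0395. A fit of the siPFDN2 groups alone, with 4 libraries, called only CXCL8 and TNFAIP3, where it called 0.143% of all genes higher. The NFKBIZ call held in 12 of 22 alternatives: it was also lost with library size only and without either starved siControl library, either siPFDN2 library after serum or any of the 4 siPFDN5 libraries (adjusted p up to 0.505, in the fit of the siPFDN2 groups alone). CXCL3 was at 0.328 and 0.213 CPM starved and at 0.646 and 0.690 CPM after serum (log2 1.31, SE 0.34, adjusted p = 0.0621). RELB was at 4.78 and 9.50 CPM starved and at 16.3 and 14.1 CPM after serum (log2 1.09, SE 0.27, adjusted p = 0.0564). ICAM1 overlapped between the 2 conditions (log2 -0.23, SE 0.21, adjusted p = 0.480).

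The high starved RELB value belonged to replicate 2, the library with the GC trend. RELB has a GC content of 65.4% in its longest transcript, the highest of the 10 genes. The median over all genes fitted in any setting, also with no count filter, was 47.3%. In the same library LIF (56.9% GC) was at 55.7 CPM, against 35.4 CPM in replicate 1, and CXCL8 (33.4% GC, the lowest of the 10) was at 0.328 CPM, against 0.677 CPM. Without that library RELB rose in siPFDN2 as well, giving 8 genes, where 2.51% of all genes rose. With the GC trend removed both RELB and CXCL3 passed, giving 9, where 3.98% of all genes rose. DESeq2 also called 9, where it called 4.33% of all genes higher.

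Whether the serum response differed between siPFDN2 and siControl was tested as an interaction. The starved siControl libraries enter it, and they are also part of the difference for which the genes were noted. None of the 10 genes passed. EdgeR called 0, where it called 0% of all genes, and 0 had an unadjusted p under 0.05 (6.6% of all genes had). DESeq2 called 0 too, with its share over all genes not given here. The differences ran from -0.81 (SE 0.38, adjusted p = 0.582) for RELB to 0.39 (SE 0.34, adjusted p = 0.620) for CXCL8 on the log2 scale. With starved siPFDN2 replicate 1 left out, so that only replicate 2 stood for that group, 5 genes passed (CXCL8, LIF, NFKBIZ, RELB and TNFAIP3), as did 37.7% of all genes. Without replicate 2 none of the 10 did.

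The response from starved siPFDN5 cells to the libraries labelled siPFDN5 after serum is described only. All 10 genes were higher in both after-serum libraries than in both starved ones, as were 36.8% of all tested genes. CXCL8 went from 1.91 and 1.87 CPM to 109.5 and 107.9 CPM (log2 5.85, SE 0.27). TNFAIP3 differed by 3.29 (SE 0.19), CXCL1 by 2.52 (SE 0.26), CXCL2 by 2.40 (SE 0.28) and LIF by 2.01 (SE 0.20) on the log2 scale. NFKBIA went from 21.2 and 20.7 CPM to 94.6 and 98.7 CPM (log2 2.21, SE 0.14), beside 1.26 in siControl and 1.55 in siPFDN2. ICAM1 was at 4.54 and 4.75 CPM starved, and the libraries labelled siPFDN5 after serum had 5.49 and 5.86 CPM (log2 0.29, SE 0.21).

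**Figure D3:**
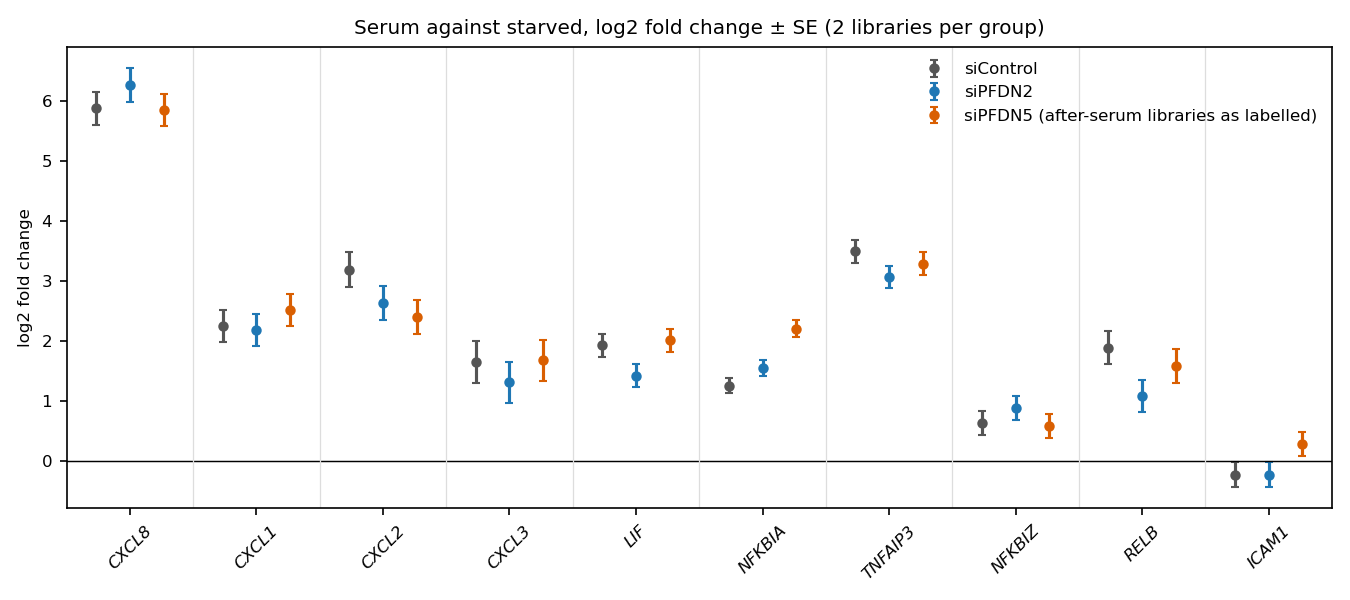
Log2 fold change of gene-body counts after 90 min of serum for the 10 genes, by siRNA (points, with SE bars from the fit over 12 libraries, 2 per group). CXCL8 lies between 5.85 and 6.26 in all 3 siRNAs, ICAM1 lies near 0, and NFKBIA runs from 1.26 in siControl to 2.21 with the libraries labelled siPFDN5.

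In starved cells, the difference for which the genes had been noted was largest for the chemokines. With siPFDN5 both libraries were above both siControl libraries for 9 genes and below them for NFKBIA, where 32.9% of all tested genes were above and 30.5% below. CXCL8 was at 1.91 and 1.87 CPM, against 0.743 and 0.702 CPM in siControl (log2 1.38, SE 0.25, or 2.61-fold). CXCL1 was at 1.05 and 0.933 CPM, against 0.582 and 0.328 CPM (log2 1.13, SE 0.28). CXCL2 was at 0.796 and 0.622 CPM, against 0.355 and 0.375 CPM (log2 0.95, SE 0.31). These are 120 and 126 counts for CXCL8, but only 66 and 63 for CXCL1 and 50 and 42 for CXCL2.

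For the remaining 7 genes the starved siPFDN5 difference was smaller. CXCL3 differed by 0.63 (SE 0.38) on 21 and 20 counts, RELB by 0.37 (SE 0.27), TNFAIP3 by 0.31 (SE 0.18), ICAM1 by 0.30 (SE 0.21), LIF by 0.17 (SE 0.19) and NFKBIZ by 0.11 (SE 0.20) on the log2 scale. NFKBIA, the gene of the inhibitor that holds NF-kB in the cytoplasm, was the exception in direction, at 21.2 and 20.7 CPM against 25.3 and 24.5 CPM (log2 -0.25, SE 0.13). The median of the 10 was 0.34, beside 0.01 over all genes, with CXCL8, CXCL1 and CXCL2 farthest above it. In 22 alternatives the difference was above 0 in all 22 for 8 genes, in 20 for NFKBIZ, and in 0 for NFKBIA. Against the starved siPFDN2 libraries, CXCL8 in starved siPFDN5 differed by 1.93 (SE 0.26), CXCL1 by 0.87 (SE 0.28) and NFKBIA by -0.38 (SE 0.13), also as a description.

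Starved siPFDN2 cells were tested against starved siControl cells, which serve as control for siPFDN5 too. No member passed. EdgeR called 0, where it called 0% of all genes, and 2 genes (CXCL2 and LIF) had an unadjusted p under 0.05 (11.3% of all genes had). DESeq2 called 0 too, with its share over all genes not given here. CXCL2 was at 0.592 and 0.595 CPM (log2 0.70, SE 0.30, adjusted p = 0.442), and CXCL8 at 0.677 and 0.328 CPM (log2 -0.54, SE 0.27, adjusted p = 0.452). Without starved siPFDN2 replicate 1, which leaves the library with the GC trend, CXCL8, LIF, NFKBIZ and RELB passed, as did 41.8% of all genes.

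After serum siPFDN2 was compared with siControl in the same way. DESeq2 called 0 of the 10, with its share over all genes not given here. EdgeR called 0 of the 10, where it called 0% of all genes. In edgeR 1 gene had an unadjusted p under 0.05, as had 6.26% of all genes. This was NFKBIA, at 78.0 and 81.2 CPM against 58.2 and 60.98 CPM (log2 0.42, SE 0.13, adjusted p = 0.772). It passed when either starved siPFDN2 library was left out (adjusted p as low as 0.0332). The other 9 differed by between -0.33 for RELB and 0.20 for CXCL1 on the log2 scale.

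The libraries labelled siPFDN5 after serum, in which PFDN5 was not clearly lowered, held the highest CXCL8, CXCL1, CXCL3, LIF, NFKBIA and ICAM1 levels of the series. Against siControl after serum edgeR called 0 of the 10, where 0.00358% of all genes were called higher, and 4 had an unadjusted p under 0.05, as had 21.6% of all genes. DESeq2 called these same 4, CXCL8, CXCL1, NFKBIA and ICAM1, where it called 3.28% of all genes higher. CXCL8 was at 109.5 and 107.9 CPM, against 46.04 and 38.65 CPM (log2 1.36, SE 0.21, adjusted p = 0.0672). CXCL1 was at 6.06 and 5.29 CPM, against 2.08 and 2.22 CPM (log2 1.40, SE 0.24, adjusted p = 0.0672). NFKBIA was at 94.6 and 98.7 CPM, against 58.2 and 60.98 CPM (log2 0.70, SE 0.13, adjusted p = 0.0672).

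ICAM1, which had not risen with serum in siControl, had 5.49 and 5.86 CPM under the siPFDN5 label, against 2.86 and 3.59 CPM in siControl (log2 0.81, SE 0.21, adjusted p = 0.0836). For these 4 genes, and for CXCL3 and LIF, both libraries labelled siPFDN5 were above both of siControl, as were 30.6% of all genes. The same 4 passed with the GC trend removed (7.9% of all genes higher), in a fit of the compared groups only (4.7%), with no count filter (1.42%) and without siControl replicate 2 after serum (2.43%). Leaving out a starved siPFDN2 library, which is in neither group but enters the shared spread, brought 5, with LIF. All genes called higher were then 13.6% without replicate 1 and 13.8% without replicate 2, so calls became more frequent throughout. Over the 22 alternatives the adjusted p of CXCL8 ran from 6.27e-09 to 0.489. CXCL2, TNFAIP3, NFKBIZ and RELB differed by between 0.06 and 0.16 on the log2 scale in gene-body counts, with no call in any alternative. Over the alternatives RELB ran from -0.10 to 0.50 and CXCL2 from -0.14 to 0.61. Over exons alone RELB was at 5.84 to 6.36 per kb under the siPFDN5 label, against 4.36 to 4.75 per kb in siControl. The fit of exon counts did not call it.

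A comparison with siPFDN2 after serum uses the same libraries labelled siPFDN5. EdgeR called 0 of the 10, where 0.0143% of all genes were called higher, with 3 at an unadjusted p under 0.05 (7.92% of all genes), and DESeq2 called 3, where it called 0.276% of all genes higher. These were CXCL8 (log2 1.51, SE 0.22, adjusted p = 0.0686), CXCL1 (1.20, SE 0.24, adjusted p = 0.291) and ICAM1 (0.87, SE 0.21, adjusted p = 0.337). A fit of those groups alone called 8, where 12.6% of all genes were called higher. Without a starved siPFDN2 library it was 4, with NFKBIA, where 3.28% (replicate 1 left out) and 3.32% (replicate 2) of all genes were. No test of the change in serum response under siPFDN5 is given, because it would rest on the starved siPFDN5 libraries.

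**Figure D4:**
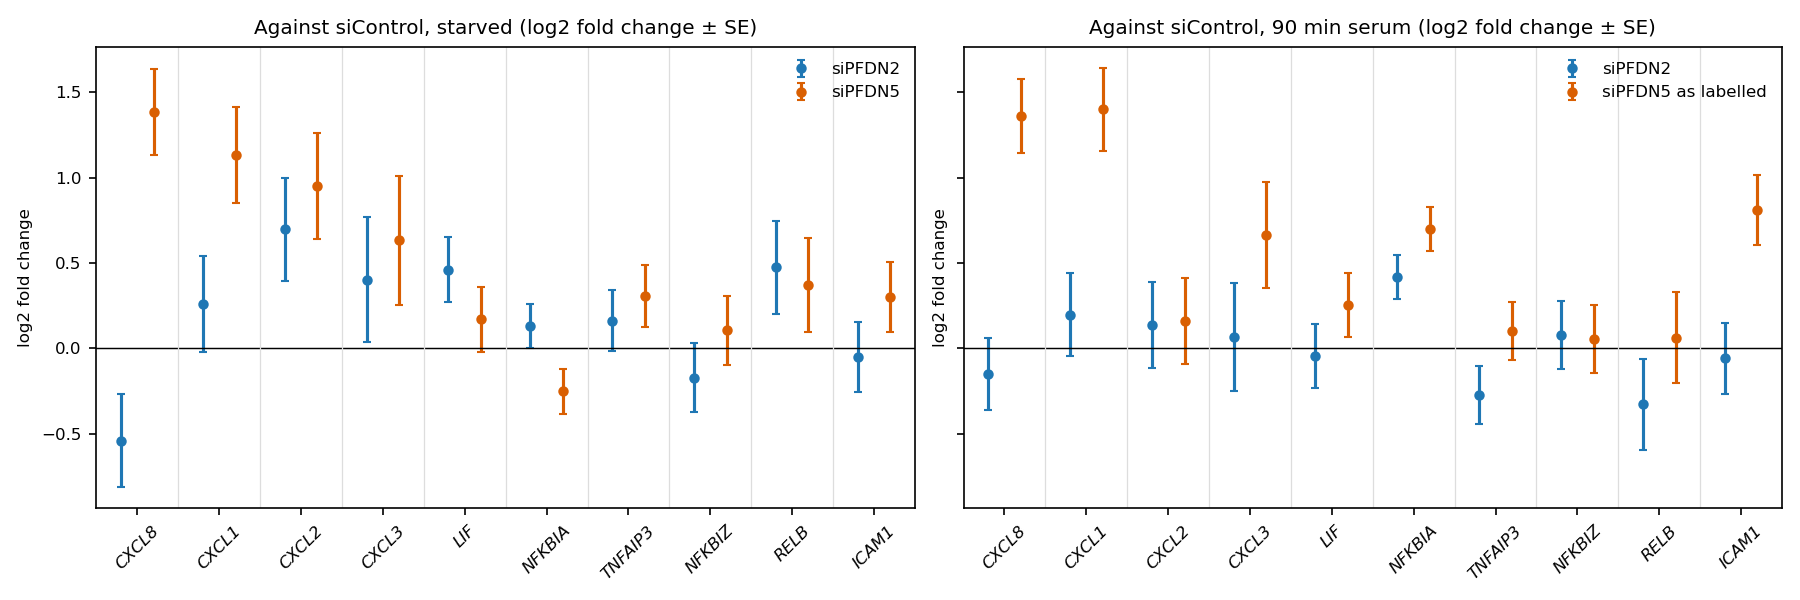
Log2 fold change of the siPFDN2 and siPFDN5 libraries against siControl for the 10 genes, starved (left) and 90 min after serum (right). Points have SE bars from the fit over 12 libraries. On the right, PFDN5 was not clearly lowered in the libraries labelled siPFDN5. CXCL8 and CXCL1 are higher by 1.13 to 1.40 under the siPFDN5 label on both sides, NFKBIA is below 0 when starved and at 0.70 after serum, and the siPFDN2 points lie between -0.54 and 0.70.

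Counts outside exons give a second measure of the same libraries, which follows unspliced RNA more than mature RNA. Of the 10 genes 8 had enough intronic counts to be tested, and CXCL1 and CXCL3 did not. For LIF, ICAM1 and TNFAIP3, reads of the genes that overlap them can enter the intronic counts. In siControl 5 of 8 rose after serum (CXCL2, CXCL8, LIF, RELB and TNFAIP3), where 6.25% of 19731 genes rose, and 0 fell. As over gene bodies, this comparison shares its starved siControl libraries with the difference for which the genes were noted. Intronic CXCL8 had 0 counts in both starved siControl libraries and 29 and 41 after serum, at least 9.91-fold higher against a floor of 3 counts per library. TNFAIP3 rose by 3.45 (SE 0.32, adjusted p = 2.74e-06) in introns, beside 3.49 over its gene body. CXCL2, with 0 and 3 starved intronic counts, lost its call without starved siControl replicate 1 (adjusted p = 0.0743). RELB introns went from 94 and 74 to 910 and 720 counts, a log2 change of 3.07 (SE 0.30, adjusted p = 5.12e-06), beside 1.89 over its gene body.

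In siPFDN2 cells 5 of 8 also rose in introns (CXCL8, LIF, NFKBIA, RELB and TNFAIP3), where 5.45% of genes rose. RELB rose there by 2.26 (SE 0.29, adjusted p = 9.4e-05), although its gene-body change there had not passed. Intronic CXCL8 had 0 counts in both starved libraries and 23 and 16 after serum, at least 10.7-fold higher against the same floor. NFKBIA had between 4 and 18 intronic counts in these libraries, and its call was lost without starved siPFDN2 replicate 2 or siPFDN2 replicate 2 after serum. LIF lost its call without starved siPFDN2 replicate 1 or either siPFDN2 library after serum, and with upper-quartile scaling or library size only. ICAM1 and NFKBIZ passed in neither siRNA.

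As a share of gene-body counts, RELB introns made up 18.6% and 14.3% in starved siControl and 49.3% and 33.1% after serum. In siPFDN2 the shares were 19.03% and 18.5% starved and 39.4% and 34.5% after serum. With siPFDN5 they were 22.8% and 17.2% starved, and 20.6% and 19.7% in the libraries labelled siPFDN5 after serum, so that no rise in the share was seen there while RELB as a whole reached 19.3 and 20.6 CPM. The intronic RELB level itself was higher there after serum, at 30.14 and 30.29 intronic CPM (282 and 347 counts). In starved siPFDN5 cells it was at 7.003 and 5.455 intronic CPM (97 and 76 counts). LIF introns held 1.05% and 1.03% in the libraries labelled siPFDN5 after serum, beside 2.98% and 2.46% in siControl and 2.80% and 2.10% in siPFDN2 after serum. Reads of LIF-AS1 and AC004264.1, which reached 1373 exon counts in a library, can be part of these LIF shares. The NFKBIZ share was lower after serum under every siRNA label. It went from 39.7% and 44.3% to 33.8% and 33.0% in siControl and from 36.2% and 33.4% to 26.0% and 24.3% in siPFDN2. From starved siPFDN5 cells to the libraries labelled siPFDN5 after serum it went from 55.0% and 44.9% to 23.6% and 23.5%, close to siPFDN2 after serum. Over all genes, the intronic share was 22.8% and 25.9% in starved siPFDN5 cells and 17.2% and 14.8% in the libraries labelled siPFDN5 after serum, against 15.0% to 20.9% in the other 8 libraries. These shares were not tested, and the part of the library-wide share in the shares of single genes was not tested.

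**Figure D5:**
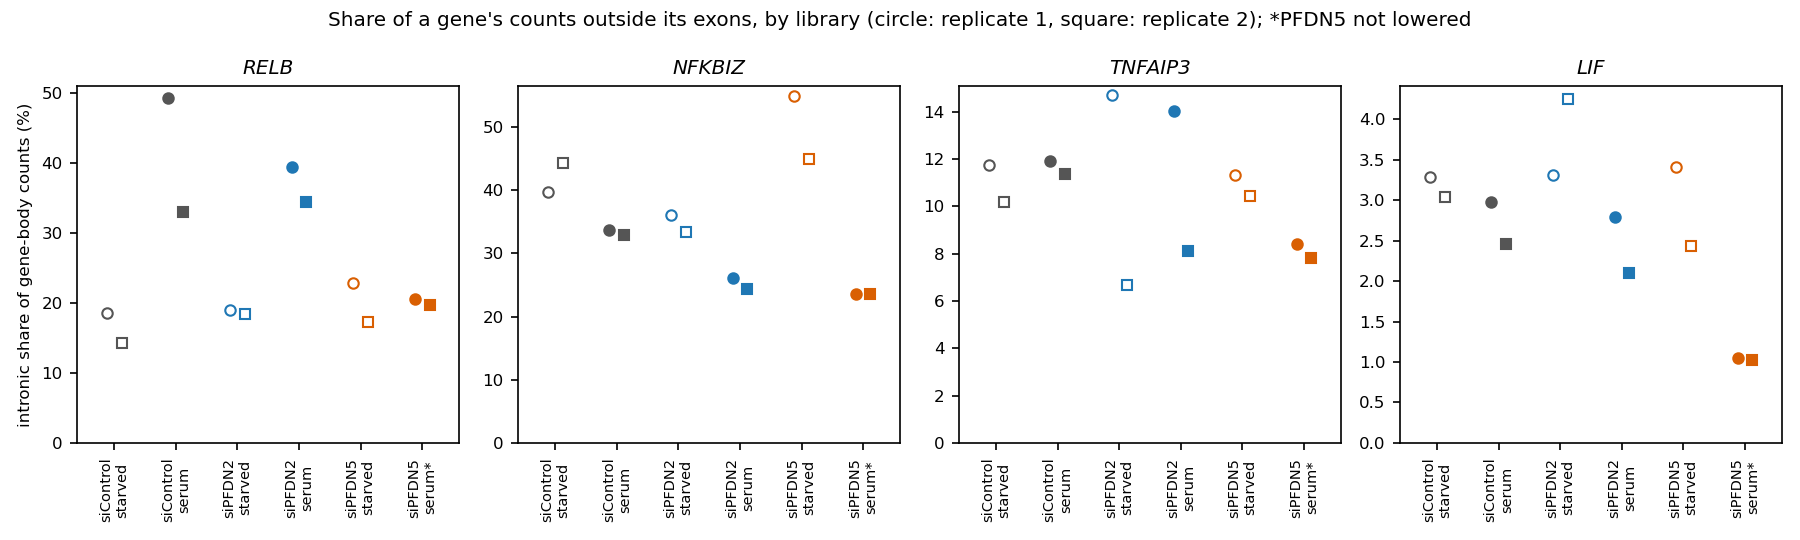
Intronic share of gene-body counts (percent, from 0) for RELB, NFKBIZ, TNFAIP3 and LIF in each library, by group; circles are replicate 1, squares replicate 2, open symbols starved and filled symbols 90 min serum. RELB lies between 33.1% and 49.3% after serum in siControl and siPFDN2 and at 20.6% and 19.7% in the libraries labelled siPFDN5.

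Introns of CXCL8 after serum gave 1.44 and 1.75 intronic CPM in siControl, 2.11 and 1.09 in siPFDN2, and 5.56 and 5.50 under the siPFDN5 label, on 16 to 63 counts. Against siControl edgeR called 1 of the 8 tested genes in introns, where 2.11% of all genes were called higher. This was CXCL8 (log2 1.79, SE 0.35, adjusted p = 0.0321). The call held in 8 of 16 alternatives, all added after the data had been seen. It was lost without siControl replicate 1 after serum, starved siControl replicate 2, either siPFDN2 library after serum or any of the 4 siPFDN5 libraries (adjusted p up to 0.323). Against siPFDN2 edgeR called 0 of the 8, where 0.00507% of all genes were called higher. There only CXCL8 had an unadjusted p under 0.05 (log2 1.82, SE 0.37, adjusted p = 0.198), and it passed in 1 of 16 alternatives, with no filter. DESeq2 was not run on intronic counts. In the transcript estimates CXCL8-201 held 98.4% to 99.3% of CXCL8 after serum. CXCL3 was split: its protein-coding CXCL3-201 held 15.3% to 69.3% in the starved libraries and 62.5% to 82.4% after serum, the rest lying mostly in the processed transcript CXCL3-204.

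The 3′ untranslated regions set the chemokines apart from the others. The pentamer ATTTA, the core of AU-rich elements that mark short-lived messenger RNAs, occurred 13.9 times per kb in CXCL2 (10 in 721 bases), 10.4 in CXCL3, 7.19 in CXCL8 and 7.08 in CXCL1. The median of 15875 genes was 1.39 per kb, and 2.06% of genes or fewer reached the density of each of the 4 chemokines. LIF had 2.19 per kb, NFKBIA 1.86, NFKBIZ 1.82 and ICAM1 1.51. TNFAIP3 had 1.27 per kb and RELB none, so 8 of the 10 lay above the median. A pentamer match is a description of the sequence only.

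Profiles over the 6 group means were compared with those of 12109 genes with a mean log2 CPM of at least 3, by the root mean square difference after centring. Those nearest to CXCL8 were EGR3 (0.43), CTGF (0.50) and THBS1 (0.64). Nearest to CXCL1 were BIRC3 (0.29), AREG (0.31) and PARD6B (0.38), to CXCL2 the overlapping pair BHLHE40-AS1 and BHLHE40 (0.13 and 0.14) and PLAUR (0.26), and to CXCL3 PLK3, FHL2 and AC108058.1 (0.14 to 0.16). TNFAIP3 had FOSL2 (0.08), DUSP5 (0.20) and MAFF (0.22), LIF had AMOTL2, DUSP4 and PPP1R15A (0.08 to 0.09), and RELB had CITED2, MCL1 and FHL2 (0.13 to 0.17). For NFKBIA they were ISG15 (0.14), CLCF1 (0.15) and RGS2 (0.15), for NFKBIZ FEM1C, NT5E and OCLN, and for ICAM1 FAM228B, PDIA4 and AK1. Among the 10 genes LIF and RELB were the closest pair (0.17), and CXCL8 and ICAM1 the most distant (3.05).

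Other genes of the pathway were read from lists. Of 56 such genes 46 were tested. After serum 10 rose and 0 fell in siControl, where 2.47% of all genes rose, and 9 rose and 2 fell in siPFDN2, where 2.06% rose and 1.2% fell, with median log2 changes of 0.12 and 0.22. Between siRNAs edgeR called 0 of the 46 in either tested comparison of siPFDN2 with siControl or in that of the libraries labelled siPFDN5 after serum. At an unadjusted p under 0.05 there were 11 of 46 for siPFDN2 starved (23.9%, beside 11.3% of all genes) and 4 for siPFDN2 after serum (8.7%, beside 6.26%). For the libraries labelled siPFDN5 there were 10 of 46 (21.7%), beside 21.6% of all genes. DESeq2 called 0, 0 and 7 of them, the 7 all higher, where it called 3.28% of all genes higher under the siPFDN5 label. The starved siPFDN2 group includes replicate 2, the library with the GC trend. Its part in the 11 genes at an unadjusted p under 0.05 was not tested.

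Of the other 4 subunit genes only REL rose, by 1.88 (SE 0.22, adjusted p = 0.000679) in siControl and 2.22 (SE 0.23, adjusted p = 0.000252) in siPFDN2. NFKB1 changed by 0.45 (adjusted p = 0.246), NFKB2 by 0.42 (adjusted p = 0.519) and RELA by 0.22 (adjusted p = 0.793) in siControl, all without a call. None of the other 7 inhibitor and feedback genes (NFKBIB, NFKBIE, NFKBID, BCL3, TNIP1, TNIP2 and CYLD) was called by edgeR after serum in siControl or siPFDN2. In each siRNA 2 of them had an unadjusted p under 0.05 in edgeR, as had 12.4% of all genes in siControl. DESeq2 called 2 of them in siControl and 0 in siPFDN2, where it called 4.33% of all genes higher in siPFDN2. Shares over all genes are not given for the unadjusted p in siPFDN2 or for DESeq2 in siControl. Among 15 upstream kinases and adaptors, MAP3K14, the NIK kinase of the non-canonical arm, rose in both siRNAs (log2 2.27, SE 0.27, and 1.42, SE 0.27). TRAF2 fell by 1.07 (SE 0.22, adjusted p = 0.0276) and TAB1 fell by 0.93 (SE 0.22, adjusted p = 0.0483) in siPFDN2. The 2 starved siPFDN2 libraries lay far apart, at 18.6 and 32.5 CPM for TRAF2 and at 19.3 and 33.7 CPM for TAB1. In starved siControl TRAF2 was at 16.8 and 18.2 CPM and TAB1 at 16.4 and 18.8 CPM. The part of the starved siPFDN2 library with the GC trend in these falls was not tested.

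EdgeR and DESeq2 called 0 of the 6 tested receptor genes, of 8 listed, after serum in siControl or siPFDN2. At an unadjusted p under 0.05 there were 0 and 1, beside 12.4% of all genes in siControl. CXCR1 and CXCR2, the receptors of these chemokines, had at most 4 and 13 counts in any library. Of the 14 tested of 22 further targets, 8 rose in siControl and 7 in siPFDN2, where 2.47% and 2.06% of all tested genes rose. PTGS2, which encodes the prostaglandin enzyme COX-2, went from 0.862 and 0.721 CPM to 9.92 and 6.45 CPM in siControl (log2 3.37, SE 0.34, adjusted p = 0.000218). PLAUR, the urokinase receptor, rose by 2.28 (SE 0.17) and BIRC3, an inhibitor of apoptosis, by 1.66 (SE 0.32) on the log2 scale. The chemokine CCL20 had 1 count in the 2 starved siControl libraries and 115 after serum, a ratio of scaled counts of 105.1 (95% exact interval 18.5 to 4186, counting error only). In siPFDN2 it had 7 and 69 counts, a ratio of 13.7 (6.32 to 35.4).

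Next to the chemokines on chromosome 4, 5 of 10 listed genes were tested. AREG, a ligand of the EGF receptor, rose in siControl (log2 2.01, SE 0.18) and in siPFDN2 (2.59, SE 0.19). EREG, another such ligand, rose in siPFDN2 (1.81, SE 0.33). In siControl EREG missed the threshold in edgeR (1.24, SE 0.32, adjusted p = 0.0749). PF4, PF4V1 and PPBP, neighbours in the same cluster, had 0 counts in every library. Of 10 interferon-stimulated genes only ISG15 rose, by 1.54 (SE 0.19) in siControl and 1.24 (SE 0.19) in siPFDN2, where 2.47% and 2.06% of all tested genes rose. In the libraries labelled siPFDN5 after serum, PTGS2 differed from siControl by 1.12 (SE 0.30, adjusted p = 0.0899), CCL20 by 1.36 (SE 0.31, adjusted p = 0.0732) and BIRC3 by 1.09 (SE 0.32, adjusted p = 0.101), none of them called by edgeR. DESeq2 called all 3 (adjusted p from 0.00592 to 0.0139). The choice of these 3 was made with their values in view.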

How the data were processed

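The authors deposited fragment counts per gene over gene bodies and over exons; per the file headers, featureCounts 1.5.2 counted fragments with both ends mapped on Ensembl annotation of GRCh38, without strand and once for every overlapping gene. Per the submitters' processing notes, HISAT2, kallisto 0.43 and GRCh38.p7 were used, with roles not given there. The deposited transcript files hold estimated counts (expected counts), which were rounded after summing per gene. A further 6 columns matched no sample label and were not used. Groups and replicates were read from sample titles.

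The count model was edgeR's (version 4.0.16, R 4.3.3): filterByExpr, TMM scaling, 1 robust quasi-likelihood model of 6 group means over 12 libraries, and Benjamini-Hochberg adjusted p under 0.05 over all 27915 genes. SE is the absolute log2 change divided by the root of F. Intronic counts are gene-body minus exon counts. Symbols and GC came from GENCODE annotation, gene positions from the deposited gene-body counts, and promoters from RefSeq. Alternatives were DESeq2 1.42.0, other scalings, no filter, GC trend removed (lowess span 0.3), exon counts, transcript sums, a replicate block, only the compared groups, and leaving out each library. The scripts were tested on simulated data. Named genes are the 10, the targets, up to 4 called genes per list and comparison with the largest change, and the 3 nearest profiles per gene. The members and lists were chosen with earlier results of these data known. Mapping rates are not given in the sources used here.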

Additional observations from a re-analysis of the deposited data

Results flagged for a closer look

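The serum response of ICAM1 pointed in opposite directions in 2 siRNA groups. In siControl both after-serum libraries (2.86 and 3.59 CPM) were below both starved ones (3.93 and 3.61 CPM), by a margin of 3.59 against 3.61 in the closest pair. With siPFDN5 both libraries labelled siPFDN5 after serum (5.49 and 5.86 CPM) were above both starved ones (4.54 and 4.75 CPM). The log2 changes were -0.22 and 0.29, a difference of 0.51 (SE 0.29). The difference was not tested, since the genes were noted for their level in the starved siPFDN5 libraries. PFDN5 itself was not clearly lowered in the libraries labelled siPFDN5 after serum. Over 22 alternatives the difference ran from 0.36 to 0.77.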

How the results depend on the processing

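Over 218 recomputed counts of called genes among the 10, 33 were lower than reported, 153 equal and 32 higher. Among these counts and the medians, 274 stayed within 1.5 times the reported count or within the replicate spread, 10 counts were lower and 21 higher by more than that, 1 median moved and none reversed. For single genes 2727 values kept their direction and side of the threshold or moved by less than the replicate spread, 40 lost a call, 98 gained one and 127 moved without a call. The serum response in siPFDN2 gave 2 called genes when only the compared groups were fitted, and 6 to 10 without 1 library. With library size only, the median serum response in siPFDN5 was 1.96. For siPFDN5 against siControl after serum, 4 genes were called with no filter, with the GC trend removed, when only the compared groups were fitted and by DESeq2, and 0 to 5 without 1 library. For siPFDN5 against siPFDN2 after serum, 2 were called with no filter, 3 with the GC trend removed, 8 when only the compared groups were fitted, 3 by DESeq2, and 0 to 4 without 1 library. Leaving out 1 library gave 0 to 4 called genes for siPFDN2 against siControl starved, 0 to 1 after serum, 0 to 5 for the difference of the serum response in siPFDN2, and 3 to 5 for introns in siPFDN2. For introns under the siPFDN5 label after serum, alternatives added after the data had been seen gave 3 genes against siControl with library size only and 0 to 1 without 1 library. Against siPFDN2 they gave 1 with no filter and 0 without any 1 library. Not all calls in the alternatives were of higher genes. Of the 3 intronic genes against siControl with library size only, CXCL8 was higher, while LIF and RELB were lower. For the serum response in siPFDN2, ICAM1 was lower where it was called. The cause of these changes in the number of calls was not tested, apart from fewer libraries in some fits.

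Replicate numbers are shared between groups, and whether they pair the libraries is not known. The deviations of same-numbered libraries correlated with r from -0.32 to 0.59, above 0.1 in 4 of 15 pairs of groups. With 2 libraries per group this check cannot show that pairing is absent. With the replicate block, the 8 genes called in siControl after serum and the 7 in siPFDN2 were again 8 and 7. With the replicate block and the GC trend removed, siPFDN5 against siControl after serum gave 4 called genes, and siPFDN5 against siPFDN2 gave 1.

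The low counts of the chemokines in starved cells, from 15 counts for CXCL3, and 2 libraries per group limit what can be detected. A member that missed the threshold is not shown to be unchanged.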
